A study of Saccharomyces cerevisiae with 12 samples.

Results

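The response of the yeast transcriptome to a shut-off of histone H3, net of the change of carbon source, was measured as a difference of 2 responses: (H3i in YPD minus H3i in YPGal) minus (WT in YPD minus WT in YPGal). All 12 of 12 RNA-seq libraries entered it. They fall into 4 groups of 3 biological replicates, and the labels number the replicates 1 to 3 in every group. The labels give both strains as Saccharomyces cerevisiae of the YEF473A background (the WT characteristic reads YEF4734A). WT was otherwise described only as wild type. In H3i, a strain also called DGS200.1, HHT1 was deleted and HHT2, the remaining gene for histone H3, was placed behind a galactose-inducible GAL1 promoter in place of its own. Every culture was grown in galactose medium (YPGal) at 30 °C, and the YPD groups were moved to glucose medium. How long the cells stayed in glucose is not stated in the labels, and neither the H3 protein nor the amount of RNA per cell was measured. Values above 0 in the difference mean a response to YPD that was higher in H3i than in WT, whether through a rise in H3i, a fall in WT, or both.

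Histone H3 and H4 form the core of the nucleosome, around which DNA is wrapped, and cells that stop making H3 cannot build a full set of nucleosomes when they copy their DNA. Nucleosomes over promoters hinder transcription factors and RNA polymerase II. Glucose acts on its own: it shuts the GAL genes, represses respiration, gluconeogenesis and many stress genes, and raises genes for ribosomes. The WT cultures measure that carbon response, and the subtraction removes it where both strains respond to glucose alike. Rap1, the protein named in the title of the series, binds promoters of ribosomal protein genes and the ends of chromosomes.

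The libraries differ by replicate number. Per library, the reads counted in genes lay between 2176277 and 2525223 for replicate 1, between 40950610 and 52278567 for replicate 2, and between 8649749 and 11628815 for replicate 3. Replicates 1 and 2 were extracted with a magnetic-bead kit and replicate 3 with Trizol and glass beads, and a different library kit was used for replicate 3. Genes with 50 CPM or more in both replicate 1 and replicate 3 of a group were followed in replicate 2. There, 41.4% to 46.8% of them stood below 0.1 of their mean level in replicates 1 and 3 in WT and in H3i YPGal, against 21.8% in H3i YPD. A difference that involves H3i YPD therefore carries this unequal loss when replicate 2 is used. In both WT libraries of replicate 3, HIS3 was read at 22.7 and 21.9 CPM, against 0 in the other 10 libraries. TRP1 was read there only as well, and LEU2, URA3 and LYS2 were at 0 there only. MF(ALPHA)1, for the pheromone of alpha cells, was read at 2464 and 2325 CPM in them and at 105 CPM or less elsewhere, while STE2, the receptor of a cells, stood at 16.5 and 14.6 CPM against 115 CPM or more elsewhere. These genes mark strain and mating type, so that both libraries labelled WT replicate 3 may come from another strain or mating type than the other WT libraries. The 8-library fit uses them as labelled, and results are also given without them. CPM is a gene's count divided by the gene total of its library and scaled to 1e6. For these reasons results are given for all 12 libraries and for the 8 libraries of replicates 1 and 3, and replicate 2 and the WT libraries of replicate 3 were examined on their own.

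Across all 12 libraries, 1 of 6408 genes tested (0.0156%) differed in its response between the strains at an edgeR adjusted p under 0.05, and 454 did at an unadjusted p under 0.05. The gene was HHT2. The replicate numbers were shared by libraries that deviated together, and a fit with the replicate number as a block called 208 genes (3.25%), of which 51 (0.796%) responded higher in H3i and 157 (2.45%) lower. Replicates 1 and 3 alone gave 1756 of 6354 genes (27.6%), with 835 higher (13.1%) and 921 lower (14.5%), of which 1726 differed by 2-fold or more. In these 8 libraries 2769 genes (43.6%) responded to YPD in H3i and 49 (0.771%) in WT. At an unadjusted edgeR p under 0.05 the numbers were 3298 in H3i and 1268 in WT. The 2 WT replicates differed in strain marker genes, and the part of this in the WT number was not tested. Leaving out 1 of the 8 libraries gave 524 to 1591 calls, with 623 when WT YPD replicate 1 was left out, 524 for H3i YPGal replicate 1 and 752 for H3i YPGal replicate 3. With no replicate block the 8 libraries gave 25 calls. Leaving both WT libraries of replicate 3 out of the 8, here and below, leaves 1 library for each WT medium and 1 residual degree of freedom. Calls of such a fit do not measure the spread between WT replicates. In the main fit of the 8 libraries the median difference over all genes tested was 0.07 on the log2 scale. Library totals in place of TMM factors moved it to 0.63 and the share of higher calls from 47.6% to 76.2%. Without both WT libraries of replicate 3 the median was 0.07.

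Among the 835 genes that responded higher in H3i, 554 (66.3%) rose at least 2-fold in H3i while WT moved by less, 128 moved at least 2-fold in opposite directions, and 59 moved that far in WT alone. Of the 921 that responded lower, 643 (69.8%) fell at least 2-fold in H3i while WT moved by less, 29 moved in opposite directions and 17 moved in WT alone. A further 225 of the 921, and 84 of the 835, moved by less than 2-fold in both strains. Over all genes tested, 17.4% rose at least 2-fold in H3i while WT moved by less. The share of all genes that fell in this way was not counted. The values count fitted log2 changes of 1 or more and carry no test of their own. Calls were made on the difference of these responses, so that the shares among called genes are set in part by the calls. Most calls lay near the vertical axis of the plot of both responses, away from the line of equal responses. RNA came from whole cultures, so that fewer cells in a given state and less RNA per cell cannot be told apart.

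**Figure D1:**
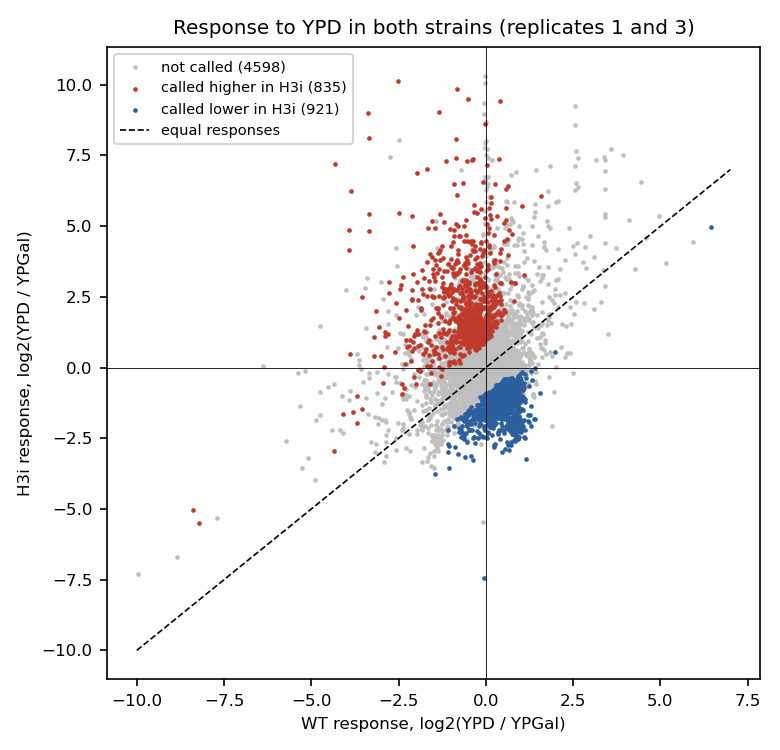
Fitted log2 response to YPD in WT (horizontal axis) and in H3i (vertical axis) for 6354 genes, replicates 1 and 3; red points are the 835 genes called higher in H3i, blue points the 921 called lower, grey points the rest, and the dashed line marks equal responses. Most coloured points lie close to 0 in WT and far from 0 in H3i.

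The shut-off gene gave the most negative difference. HHT2 stood at 911, 1300 and 936 CPM in WT YPGal and 781, 834 and 793 CPM in WT YPD, and at 3694, 4353 and 2284 CPM in H3i YPGal and 14.7, 21.5 and 30.3 CPM in H3i YPD. Here and below, 3 values in a row are replicates 1, 2 and 3. The 3 H3i YPD libraries were the lowest of all and overlapped no other group, and the 3 H3i YPGal libraries were the highest. The difference of responses was −7.31 in the 12 libraries (edgeR adjusted p = 0.0331) and −7.36 ± 0.68 SE, edgeR adjusted p = 0.00544 in replicates 1 and 3 (sacCer3 chromosome XIV, 575640 to 576050). HHT1, deleted in H3i, was read at 634 to 1329 CPM in WT and at 0 to 3.34 CPM in H3i. Its response in H3i rests on 9 counts in YPGal and 0 in YPD, and its difference was not called (edgeR adjusted p = 0.113).

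Of the 8 core histone genes 3 responded lower in H3i and none higher: HHT2, HHF2 and HTB2. Median differences of the 8 genes were −0.58, 0.89 and −0.06 within replicates 1, 2 and 3. HHF2, 1 of 2 genes for histone H4, shares its upstream region with HHT2. HHF2 stood at 809, 1306 and 774 CPM in WT YPGal and 647, 678 and 799.7 CPM in WT YPD, and at 63.9, 5.13 and 125 CPM in H3i YPGal and 28.5, 8.74 and 58.9 CPM in H3i YPD. H3i lay below WT in both media, also before the shift, and the further difference in response was −1.51 (edgeR adjusted p = 0.0471), a call lost without any of 6 of the 8 libraries. The list's calls fell to 1 with library totals and when WT YPD, H3i YPGal or H3i YPD of replicate 1 or either WT library of replicate 3 was left out. HHF1, the other H4 gene, stood at 1057 to 1232 CPM in the 6 H3i libraries, and its difference of −0.33 was not called (edgeR adjusted p = 0.55) and turned to 0.23 with library totals. HTZ1, for the variant H2A.Z, and HHO1, for the linker histone, responded lower, by −1.70 and −1.29 (edgeR adjusted p = 0.0114 and 0.0162), and CSE4, for the centromeric H3, was not called (−0.46, edgeR adjusted p = 0.408).

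The GAL1 promoter that drives HHT2 in H3i is opened by Gal4, which binds the letters CGG and CCG separated by 11 bases. This pattern, searched on both strands in the 500 bases before each coding start, was found for 8 of 9 galactose genes (88.9%) and for 2.99% of all coding genes tested. Windows of 30 bases are shown because they carry the switch that the medium turns, with the match in capitals, from RefSeq R64 (the sacCer3 assembly). They lie at chrII:278562-278591 and chrII:278599-278628 (plus strand, between GAL10 and GAL1), chrII:275696-275725 (minus strand, GAL7) and chrXII:289790-289819 (plus strand, GAL2).
GAL1 upstream match: gaagtaCGGATTAGAAGCCGCCGagcgggc
GAL1 downstream match: ctccgaCGGAAGACTCTCCTCCGtgcgtcc
GAL7 match: agcgctCGGACAACTGTTGACCGtgatccg
GAL2 match: aggcacCGGCGGTCTTTCGTCCGtgcggag

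The median response of the 9 galactose genes was −4.90 in WT and −3.96 in H3i, and 3 of 9 were called higher in the difference: GAL7, GAL10 and PGM2. GAL10 stood at 7840.1, 5952 and 2917 CPM in WT YPGal and 19.9, 7.44 and 10.5 CPM in WT YPD, and at 10519, 11126 and 3932 CPM in H3i YPGal and 188, 200 and 176 CPM in H3i YPD. GAL10 encodes the epimerase of galactose breakdown. The 3 H3i YPD libraries, at 176 to 200 CPM, were all above the 3 WT YPD libraries, at 7.44 to 19.9 CPM. Its difference was 2.73 ± 0.69 SE, edgeR adjusted p = 0.0251, and it was called in the 12 libraries with the replicate block too (2.83, edgeR adjusted p = 0.046). For GAL7, the uridylyltransferase gene, H3i YPD libraries were at 209.5, 380.4 and 138 CPM and WT YPD libraries at 2.59, 10.5 and 13.0 CPM (difference 3.36 ± 0.98 SE, edgeR adjusted p = 0.0386). GAL1 itself had a fitted response of −6.69 in H3i and −8.85 in WT, and its difference of 2.16 did not pass the test (edgeR adjusted p = 0.0875). Leaving out each of the 8 libraries left 0 to 3 galactose genes called: GAL7 lost its call without any of 7 libraries and GAL10 without any of 6. Median differences of the list were 2.74, 2.23 and 2.23 within replicates 1, 2 and 3, on the scale of log2(CPM + 1).

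Cytosolic ribosomal protein genes responded lower in H3i than in WT. Their median response was 0.84 in WT, a value without a test, and −1.97 in H3i, and 131 of 137 tested ribosomal protein genes were called lower in H3i and 0 higher, beside 14.5% lower among all genes. The differences ran from −3.63 to 0.16, with a median of −2.84. RPS21A stood at 545, 969 and 476 CPM in WT YPGal and 817, 1148 and 635 CPM in WT YPD, and at 589, 1100.5 and 298 CPM in H3i YPGal and 75.4, 149 and 73.4 CPM in H3i YPD. RPS21A encodes a protein of the small subunit. The 3 H3i YPD libraries lay below the other 9. The difference was −3.56 ± 0.46 SE, edgeR adjusted p = 0.00721 in replicates 1 and 3 and −3.59 in the 12 libraries with the replicate block (edgeR adjusted p = 0.0115).

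RPL12A, RPL8B and RPL16A encode proteins of the large subunit. RPL16A stood at 743, 2.37 and 623 CPM in WT YPGal and 1387, 1.32 and 878 CPM in WT YPD, and at 816, 2.39 and 503 CPM in H3i YPGal and 149, 5.57 and 134 CPM in H3i YPD. In replicates 1 and 3 the H3i YPD libraries were the lowest, while all 4 libraries of replicate 2 were under 6 CPM. The difference was −3.44 ± 0.44 SE, edgeR adjusted p = 0.00721. RPL12A and RPL8B differed by −3.63 and −3.55 (edgeR adjusted p = 0.00774 and 0.00721). Most of these genes come in paralogous pairs, whose shared reads the authors' counting could split or drop. YBR191W-A, a reading frame that RefSeq does not list, gave the second lowest difference among called genes, −4.40 (edgeR adjusted p = 0.0194), at 0 to 25.1 CPM in replicates 1 and 3, and lost its call without any of 4 libraries.

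For the list as a whole, the median differences were −2.89, −2.30 and −1.64 within replicates 1, 2 and 3. Calls numbered 110 to 130 when each of the 8 libraries was left out, 130 without both WT libraries of replicate 3, 127 with library totals and 84 in the 12 libraries with the replicate block. Rap1 binds upstream of many of these genes. The letters CACCC and ACA separated by 2 bases, 1 form of its site searched on both strands, stood in the 500 bases before the start of 29 of 137 of them (21.2%), against 2.22% of all coding genes tested. Genes with the match and without it were both mostly called lower: 28 of 29 with a median of −2.73, and 103 of 108 with a median of −2.85. Genes without the match may carry another form of the site, so that these counts do not separate bound from unbound genes. The 3 with the lowest differences among those with a match are shown with the match in capitals, at chrIV:1401424-1401453 (plus strand), chrIV:1355831-1355860 (minus strand) and chrXI:431485-431514 (plus strand) of RefSeq R64.
RPL27B: aatcattttcCACCCACACAtatattaccc
RPS17B: gttaaaattaCACCCATACAtttatagtat
RPL14A: agcgcaaataCACCCATACActatttttac

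Genes that build ribosomes followed. Of 93 ribosome biogenesis genes 63 were called lower and 0 higher, with median responses of 0.74 in WT and −0.78 in H3i and a median difference of −1.46. CBF5 stood at 478, 1057 and 831 CPM in WT YPGal and 922, 1485 and 999.8 CPM in WT YPD, and at 623, 1112 and 760.2 CPM in H3i YPGal and 162, 76.7 and 271 CPM in H3i YPD. CBF5 encodes the pseudouridine synthase that modifies ribosomal RNA. Its 3 H3i YPD libraries lay below the other 9, and the difference was −2.89 ± 0.46 SE, edgeR adjusted p = 0.00833. DBP2, for a DEAD-box RNA helicase, differed by −2.85 (edgeR adjusted p = 0.0312), but its replicates 1 and 3 stood at 160 and 765 CPM in H3i YPD and its call was lost without any of 5 libraries. Within replicates the median differences of the list were −1.15, −0.01 and −0.67, beside 0.77, 1.45 and 0.42 over all genes tested. Leaving out libraries gave 18 to 83 calls, with 18 when either WT YPD or H3i YPGal of replicate 1 was left out, 25 for H3i YPGal replicate 3, 34 for WT YPGal replicate 1 and 40 for H3i YPD replicate 3. Library totals left 31 calls, and both WT libraries of replicate 3 left out gave 83.

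Short letter strings are known from promoters of these genes, GATGAG (PAC) and AAAAATTT (RRPE). Searched on both strands, PAC stood in the 500 bases before 87.1% of the ribosome biogenesis genes and 28.1% of all coding genes tested, and RRPE in 81.7% and 20.8%. Over all genes called lower RRPE was found in 38.3% and over those called higher in 12.9%. Both are shown for the named genes, with the match in capitals, at chrXII:505991-506020 and chrXII:505923-505952 (CBF5, plus and minus strand) and chrXIV:413472-413501 and chrXIV:413413-413442 (DBP2, minus and plus strand) of RefSeq R64.
CBF5 PAC: aaattttcaaatGATGAGatgtttagctta
CBF5 RRPE: aaagaagaaagAAAAATTTtcagtgagaac
DBP2 PAC: aaaattttctgcGATGAGcatcggcgtaaa
DBP2 RRPE: ttgaatgattgAAAAATTTatttctttttt

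The translation machinery beyond the ribosome moved likewise, with 8 of 13 elongation factor and nascent-chain genes lower and 1 higher (median difference −1.95). EGD1 stood at 567, 774 and 777 CPM in WT YPGal and 880.4, 1003 and 926 CPM in WT YPD, and at 581, 915 and 603 CPM in H3i YPGal and 105, 198 and 152 CPM in H3i YPD. EGD1 and EGD2 encode subunits of the nascent polypeptide-associated complex, which binds new chains at the ribosome. H3i YPD was the lowest group for EGD1 in every replicate. In replicate 2 EGD2 was at 8.03 and 3.96 CPM in WT YPGal and WT YPD. It was at 7.72 and 10.8 CPM in H3i YPGal and H3i YPD there, a difference of 1.30. Differences were −3.23 ± 0.42 SE, edgeR adjusted p = 0.00721 for EGD1 and −3.43 ± 0.41 SE, edgeR adjusted p = 0.00643 for EGD2, both kept without each of the 8 libraries, while the list's lower calls numbered 5 to 9, with 5 without WT YPD replicate 1 or H3i YPGal replicate 1. Of 69 mitochondrial ribosomal protein genes 27 were lower and 0 higher, but here both strains had negative medians (−0.64 in WT and −1.53 in H3i). Their median differences within replicates 1, 2 and 3 were −0.16, 1.46 and −0.44, beside 0.77, 1.45 and 0.42 over all genes tested. MRPL33 differed by −2.13 ± 0.34 SE, edgeR adjusted p = 0.00845, and MRPL51 by −2.37 (edgeR adjusted p = 0.0305), a call lost without any of 7 libraries. The list's calls fell to 6 lower and 1 higher with library totals, to 12 without both WT libraries of replicate 3, and to 4 to 24 when single libraries were left out.

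**Figure D2:**
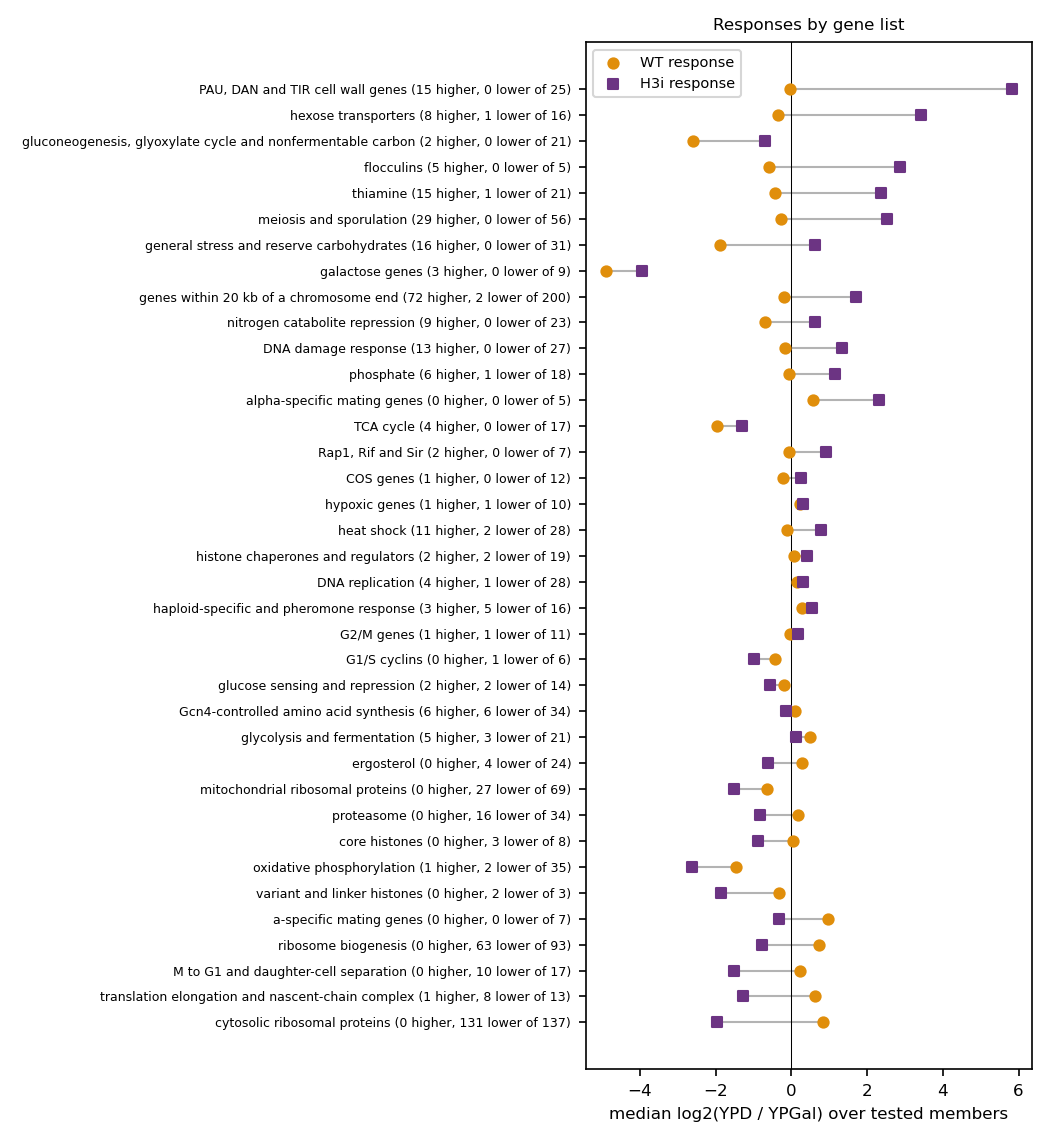
Median log2 response to YPD over the tested members of each of 37 gene lists in WT (orange circles) and H3i (purple squares), replicates 1 and 3, ordered by the median difference between the strains; labels give the members called higher and lower. Cytosolic ribosomal proteins stand at the bottom (0.84 in WT, −1.97 in H3i) and PAU, DAN and TIR genes at the top (−0.03 and 5.82).

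General stress and reserve carbohydrate genes, many of them under the factors Msn2 and Msn4, moved the other way. Their median response was −1.88 in WT and 0.63 in H3i. 16 of 31 were called higher and 0 lower, beside 13.1% higher among all genes. GND2 stood at 13.9, 87.9 and 26.8 CPM in WT YPGal and 1.30, 2.93 and 7.13 CPM in WT YPD, and at 7.93, 22.7 and 47.2 CPM in H3i YPGal and 598, 1057 and 499 CPM in H3i YPD. GND2 encodes a 6-phosphogluconate dehydrogenase. WT fell and H3i rose at least 2-fold in every replicate, and H3i YPD lay above all other libraries. The difference was 6.39 ± 0.87 SE, edgeR adjusted p = 0.00743. GRE1, for a hydrophilin, did the same, with 304, 524 and 436 CPM in H3i YPD and 1.73, 2.43 and 11.9 CPM in WT YPD (difference 5.15 ± 0.79 SE, edgeR adjusted p = 0.00798). The stress response element AGGGG stood in the 500 bases before 30 of 31 genes of the list (96.8%) and 34.3% of all coding genes tested. Within replicates the medians were 4.60, 4.51 and 1.49. The WT medians were −2.42 in replicate 1 and −1.34 in replicate 3. Without both WT libraries of replicate 3, 22 were called, and 4 to 23 without single libraries, with 4 when H3i YPGal replicate 1 was left out, 8 for WT YPD replicate 1 and 10 for H3i YPGal replicate 3.

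For gluconeogenesis, the glyoxylate cycle and other nonfermentable carbon, the result rests on which WT libraries are used. 2 of 21 genes were called higher (9.52%, against 13.1% of all genes) at a median difference of 3.12. The median difference was 5.17 without both WT libraries of replicate 3 and ran from 0.48 to 4.69 without single libraries. The median WT response was −4.81 in replicate 1 and −0.66 in replicate 3, and the median differences within replicates 1, 2 and 3 were 6.49, 4.51 and −0.05. PCK1 was read at 518, 1085 and 77.6 CPM in WT YPGal and 2.16, 0 and 32.0 CPM in WT YPD, and at 61.4, 0.446 and 794 CPM in H3i YPGal and 176, 287 and 254 CPM in H3i YPD. PCK1, for phosphoenolpyruvate carboxykinase, was not called: in YPGal H3i replicate 1 was far below replicate 3 and WT the reverse, and groups overlapped (difference 3.87 ± 2.09 SE, edgeR adjusted p = 0.196). PCK1 was chosen after its values were seen.

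TCA cycle genes had a median response of −1.98 in WT and −1.30 in H3i, and 4 of 17 were called higher (23.5%, against 13.1% of all genes). IDH2, for a subunit of isocitrate dehydrogenase, stood in H3i YPD at 1539, 1727 and 672 CPM and in WT YPD at 198, 262 and 109.8 CPM, with no overlap (difference 1.97 ± 0.49 SE, edgeR adjusted p = 0.0231). ACO1, for aconitase, differed by 1.66 (edgeR adjusted p = 0.0376) and was under 3 CPM in all of replicate 2. Calls of the list ranged over 0 to 9 without single libraries. IDH2 lost its call without any of 5 of them and ACO1 without any of 7. The list had 9 calls without WT YPGal replicate 3 and at most 2 without each of the other 7 libraries. Genes of oxidative phosphorylation had lower responses in H3i by the median (−1.46 in WT and −2.64 in H3i), but 2 of 35 were called lower and 1 higher, with up to 25 lower when 1 library was left out. Of 21 genes of glycolysis and fermentation 5 were higher and 3 lower (23.8% and 14.3%, against 13.1% and 14.5% of all genes). Higher calls fell to 3 without H3i YPGal replicate 1 or WT YPGal replicate 3, and lower calls to 0 without WT YPD replicate 1 or H3i YPGal replicate 3 and to 1 without H3i YPGal replicate 1.

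TDH1 stood at 122, 497 and 632 CPM in WT YPGal and 6.05, 149.9 and 55.4 CPM in WT YPD, and at 149.9, 466 and 658 CPM in H3i YPGal and 2235, 3225 and 1312 CPM in H3i YPD. TDH1 encodes a minor glyceraldehyde-3-phosphate dehydrogenase. H3i YPD was above every other library, and the difference was 6.05 ± 1.14 SE, edgeR adjusted p = 0.011, a call lost without H3i YPGal replicate 1. PDC6, for a minor pyruvate decarboxylase, stood at 1226, 8.28 and 413 CPM in H3i YPD and at 5.78 CPM or less in the other 9 libraries (difference 7.75 ± 1.30 SE, edgeR adjusted p = 0.00905). Its difference was 4.29 without WT YPGal replicate 3 (edgeR adjusted p = 0.44) and 5.59 without both WT libraries of replicate 3 (edgeR adjusted p = 0.27). PFK1, for phosphofructokinase, and ADH3, for the mitochondrial alcohol dehydrogenase, responded lower, by −1.89 and −1.85 (edgeR adjusted p = 0.0156 and 0.0143), calls lost without any of 3 and any of 2 libraries. FDH1, for formate dehydrogenase, stood at 189.8, 449 and 228 CPM in H3i YPD and at 4.50 CPM or less in every other library. Over replicates 1 and 3 its pooled CPM in H3i YPD was 76.7-fold that in H3i YPGal (95% interval 55.3 to 110, counting error only).

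The largest positive differences belonged to genes that were close to silent in the other 3 groups. Of 25 tested genes of the PAU, DAN and TIR families of cell wall proteins 15 were called higher and 0 lower; 25 of 30 members passed the filter on low counts, which a gene read in H3i YPD alone can pass. PAU8 was read at 0, 0.134 and 0.231 CPM in WT YPGal and 0, 0.0574 and 0.108 CPM in WT YPD, and at 0, 0.0669 and 0 CPM in H3i YPGal and 19.3, 72.3 and 22.5 CPM in H3i YPD. H3i YPD was the highest group in every replicate. PAU8 was at least 91.2-fold higher in H3i YPD than in H3i YPGal over replicates 1 and 3, with the group at 0 set to a floor of 3 counts over both libraries, and by the same floor PAU19 was at least 113-fold and PAU9 at least 53.1-fold higher. The edgeR adjusted p of their differences was 0.0215, 0.0422 and 0.0241. PAU19 lost its call without any 1 of the 8 libraries, and PAU8 and PAU9 without any of 7. These genes are near copies of each other, so that their reads may be split among them. The median difference was 4.76, or 5.28 with groups at 0 set to the floor, and calls numbered 4 to 14 without single libraries, the lowest when WT YPGal replicate 3 was left out, and 5 with neither WT library of replicate 3. In 5 further cases the count fell past 1.5-fold: 5 for H3i YPGal replicate 3, 6 for WT YPD or H3i YPGal of replicate 1, and 9 for H3i YPD replicate 1 or WT YPD replicate 3.

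YDR194W-A, an uncharacterised reading frame, and YDL152W, which RefSeq does not list, had 0 counts in H3i YPGal of replicates 1 and 3 and were at least 51.6-fold and at least 73.2-fold higher in H3i YPD by the same floor. Their calls were lost without any of 6 and any of 4 libraries, the WT libraries of replicate 3 among them.

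Meiosis and sporulation genes, which haploid cells in rich medium keep off, were called higher in 29 of 56 cases and lower in 0 (median 2.94). LDS1 stood at 0, 0.783 and 1.04 CPM in WT YPGal and 0, 0.383 and 1.30 CPM in WT YPD, and at 0, 0.982 and 0.299 CPM in H3i YPGal and 136, 259.6 and 205 CPM in H3i YPD. LDS1 is a sporulation gene of the spore wall. The counts gave an 806-fold level in H3i YPD over H3i YPGal in replicates 1 and 3, from 3 counts in YPGal (95% interval 275 to 3909, counting error only). OSW1, for an outer spore wall protein, stood at 35.4, 4.42 and 96.2 CPM in H3i YPD and at 1.04 CPM or less in every other library (difference 7.84 ± 1.25 SE, edgeR adjusted p = 0.00845). LDS1 and OSW1 lost their calls without WT YPGal replicate 3, at differences of 4.07 and 3.62 in place of 9.03 and 7.84 (edgeR adjusted p = 0.975 and 0.966), and without both WT libraries of replicate 3 (edgeR adjusted p = 1 for each). The letters TAGCCGCC, bound by the repressor Ume6, stood before 16 of 56 genes of the list (28.6%) and 2.36% of all coding genes tested. Calls numbered 11 to 32 without single libraries, with 11 and 12 when H3i YPGal of replicate 3 or 1 was left out, 14 for WT YPGal replicate 3 and 18 for WT YPD replicate 1. Medians within replicates 1, 2 and 3 were 3.98, 2.47 and 2.45.

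All 5 of 5 flocculin genes, whose products make cells adhere, were called higher, also without each of the 8 libraries. FLO1 stood at 40.0, 26.0 and 26.1 CPM in WT YPGal and 7.78, 3.29 and 16.3 CPM in WT YPD, and at 35.9, 23.4 and 32.6 CPM in H3i YPGal and 312, 563 and 396 CPM in H3i YPD. H3i YPD was the highest group for FLO1 in every replicate, with no overlap (difference 4.21 ± 0.50 SE, edgeR adjusted p = 0.00643). FLO11 differed by 4.26 ± 0.35 SE, edgeR adjusted p = 0.00544, with 209, 25.3 and 402 CPM in H3i YPD. Of 16 hexose transporter genes 8 were higher and 1 lower. HXT9, a transporter gene close to a chromosome end, stood at 146, 225 and 147 CPM in H3i YPD and at 2.34 CPM or less in the other 9 libraries (difference 6.66 ± 0.88 SE, edgeR adjusted p = 0.00721). HXT14 differed by 5.79 (edgeR adjusted p = 0.0186) and was at 1.20 CPM in H3i YPD of replicate 2. Its difference was 0.61 without WT YPGal replicate 3 (edgeR adjusted p = 0.892), and its call was also lost without H3i YPGal of replicate 1 or 3. HXT calls fell to 3 without H3i YPGal replicate 3, 4 without H3i YPGal replicate 1 and 5 without WT YPGal replicate 3.

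Thiamine genes were called higher in 15 of 21 cases and lower in 1. THI13 stood at 2.77, 11.3 and 5.55 CPM in WT YPGal and 0.865, 0.172 and 2.05 CPM in WT YPD, and at 1.25, 6.27 and 5.78 CPM in H3i YPGal and 212, 345 and 179 CPM in H3i YPD. THI13 and THI5 make the pyrimidine part of thiamine and are near-identical copies, so that their counts are uncertain relative to each other. WT fell and H3i rose at least 2-fold for THI13 in every replicate, and the differences were 6.75 ± 0.78 SE, edgeR adjusted p = 0.0064 for THI13 and 7.75 ± 1.11 SE, edgeR adjusted p = 0.00774 for THI5. THI13 kept its call without each of the 8 libraries, while THI5 stood at 1.75 without WT YPGal replicate 3 (edgeR adjusted p = 0.93). Thiamine calls numbered 9 to 14 without single libraries, the lowest without H3i YPGal replicate 1. Nitrogen catabolite repression gave 9 of 23 higher and 0 lower, with 5 to 13 without single libraries, the lowest without H3i YPGal replicate 1. DAL80, for a GATA-type repressor, stood at 62.0, 102 and 70.4 CPM in H3i YPD and at 2.29 CPM or less elsewhere (difference 7.94 ± 1.74 SE, edgeR adjusted p = 0.0159), a call lost without either WT library of replicate 3 (3.29 without WT YPGal, edgeR adjusted p = 0.973). DAL1, for allantoinase, differed by 3.82 ± 0.67 SE, edgeR adjusted p = 0.00958. Phosphate genes gave 6 of 18 higher and 1 lower, with 1 to 10 higher without single libraries: 1 without WT YPD or H3i YPGal of replicate 1, 2 without WT YPGal replicate 3, 3 without H3i YPD replicate 1 or H3i YPGal replicate 3, and 10 without H3i YPD replicate 3. GIT1 stood at 7.52, 0.939 and 20.3 CPM in WT YPGal and 3.89, 5.36 and 8.21 CPM in WT YPD, and at 3.34, 0 and 9.47 CPM in H3i YPGal and 222, 354 and 243 CPM in H3i YPD. GIT1, for a transporter of glycerophosphoinositol, was highest in H3i YPD in every replicate (difference 5.94 ± 0.57 SE, edgeR adjusted p = 0.00544). PHM7 differed by 4.41 (edgeR adjusted p = 0.0217), a call lost without WT YPD or H3i YPGal of replicate 1.

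**Figure D3:**
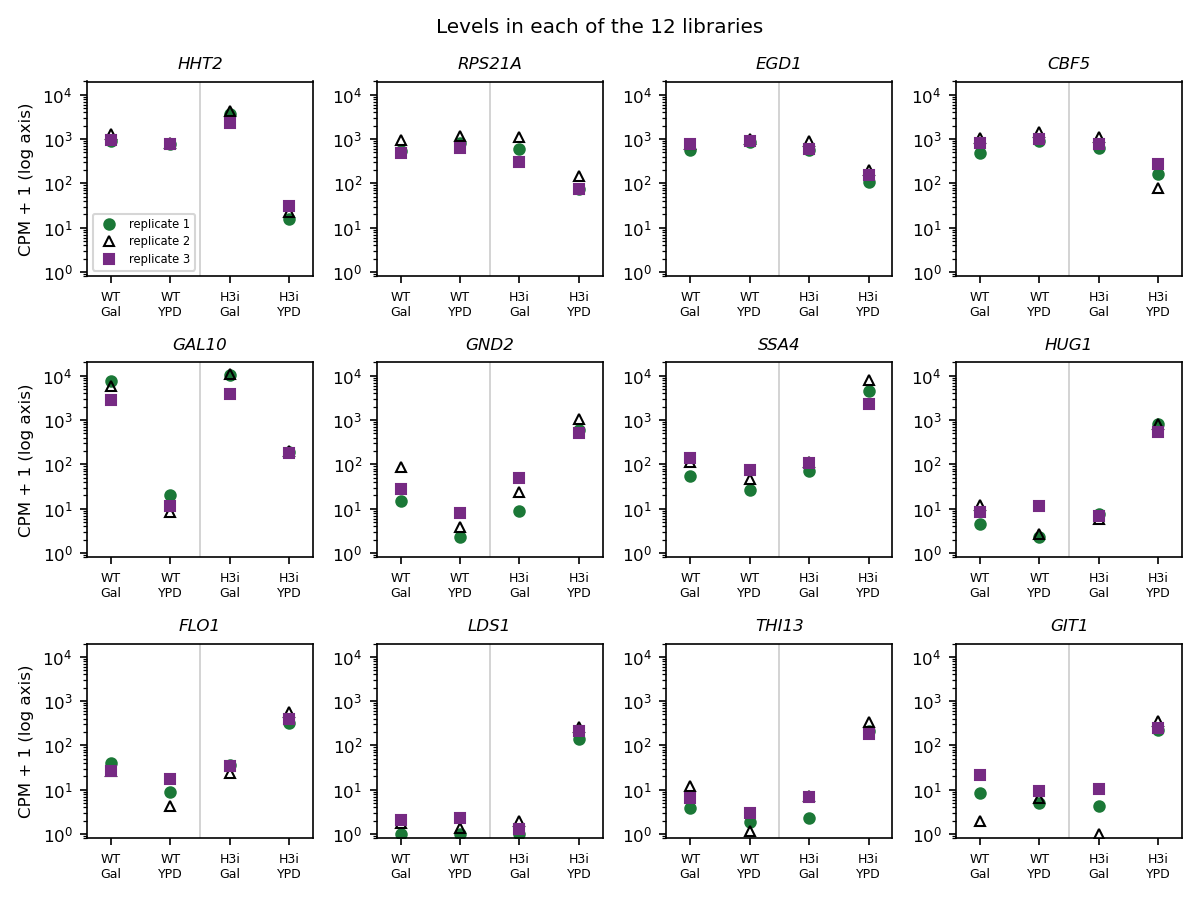
Level of 12 named genes in each of the 12 libraries as CPM + 1 on a log axis, by strain and medium; green circles are replicate 1, open triangles replicate 2 and purple squares replicate 3. HHT2, RPS21A, EGD1 and CBF5 are lowest in H3i YPD, GAL10 is lowest in WT YPD, and the other 7 genes are highest in H3i YPD.

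Heat shock genes split: 11 of 28 were called higher and 2 lower, so that the median of 0.62 describes neither set. SSA4 stood at 52.7, 114 and 135 CPM in WT YPGal and 25.9, 45.2 and 72.6 CPM in WT YPD, and at 71.0, 113 and 109 CPM in H3i YPGal and 4581, 8123 and 2295 CPM in H3i YPD. SSA4 encodes the stress-inducible Hsp70. H3i YPD was far above all other libraries, and the difference was 5.79 ± 0.82 SE, edgeR adjusted p = 0.00774. HSP26, for a small heat shock protein, stood at 1016, 1475 and 615 CPM in H3i YPD and 2.59, 0 and 102 CPM in WT YPD (difference 5.13 ± 1.53 SE, edgeR adjusted p = 0.0419), a call lost without any of 5 libraries. Calls of the list numbered 5 to 12 without single libraries, with 5 without H3i YPGal replicate 1, 6 without WT YPD replicate 1 and 7 without H3i YPGal replicate 3.

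DNA damage genes were called higher in 13 of 27 cases and lower in 0. HUG1 stood at 3.56, 10.9 and 7.63 CPM in WT YPGal and 1.30, 1.66 and 10.3 CPM in WT YPD, and at 6.68, 4.89 and 5.78 CPM in H3i YPGal and 828, 809 and 553 CPM in H3i YPD. HUG1 encodes an inhibitor of ribonucleotide reductase that is induced by the replication checkpoint. Its 3 H3i YPD libraries were above the other 9, the highest of which was 10.9 CPM, and the difference was 6.24 ± 0.88 SE, edgeR adjusted p = 0.00769. DDI3, a gene with an identical copy elsewhere in the genome and so of uncertain count, differed by 6.39 ± 1.20 SE, edgeR adjusted p = 0.011. Medians within replicates were 2.06, 2.13 and 1.91. Without single libraries 6 to 12 were called, with 6 and 7 when H3i YPGal of replicate 3 or 1 was left out and 8 when WT YPD of replicate 1 or 3 was. Of 28 DNA replication genes 4 were higher (14.3%, against 13.1% of all genes) and 1 lower, and the higher calls fell to 0 without H3i YPGal replicate 3 and to 2 without H3i YPGal replicate 1 or WT YPD replicate 3. POL2 and POL1, for the catalytic subunits of DNA polymerases epsilon and alpha, differed by 2.0 and 1.82 (edgeR adjusted p = 0.0102 and 0.0192), calls lost without H3i YPGal replicate 3 for POL2 and without any of 3 libraries for POL1, and replicate 2 put POL1 the other way at −12.4 on the log2(CPM + 1) scale, with WT YPGal at 0.0447 CPM and H3i YPD at 7.47 CPM there.

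Genes of the M to G1 transition and of daughter-cell separation were called lower in 10 of 17 cases and higher in 0 (median −1.47). AMN1 stood at 547, 871 and 563 CPM in WT YPGal and 595, 795 and 569 CPM in WT YPD, and at 777, 1171 and 690.5 CPM in H3i YPGal and 104, 39.5 and 191 CPM in H3i YPD. AMN1 is an antagonist of mitotic exit expressed in daughter cells. H3i YPD was the lowest group without overlap, and the difference was −2.97 ± 0.49 SE, edgeR adjusted p = 0.00872. DSE2, a daughter-specific cell wall gene, differed by −2.44 ± 0.45 SE, edgeR adjusted p = 0.0103. The list's calls numbered 3 to 13 without single libraries, with 3 when WT YPD replicate 1 was left out, 4 for H3i YPGal replicate 1 and 6 for H3i YPD replicate 1. PRE2 and PRE5 of the proteasome core particle differed by −1.50 and −1.49 (edgeR adjusted p = 0.0181 and 0.0217). Median differences of 34 proteasome genes were −0.31, 1.01 and −0.51 within replicates 1, 2 and 3, so that replicate 2 did not show the fall. Of these 34 genes, 16 were called lower and 0 higher. This result depended on the scaling and on single libraries: library totals left 1 proteasome call and leaving out libraries left 0 to 8, with 0 without WT YPD replicate 1 or H3i YPGal of replicate 1 or 3. Ergosterol genes gave 4 of 24 lower (16.7%, against 14.5% of all genes) and 0 higher, with 1 lower without WT YPD replicate 1 or H3i YPGal of replicate 1 or 3 and 2 without H3i YPD replicate 1. IDI1, for isopentenyl diphosphate isomerase, differed by −2.23 ± 0.34 SE, edgeR adjusted p = 0.00804, and ERG11, for lanosterol demethylase, by −1.94 (edgeR adjusted p = 0.0191), a call lost without any of 4 libraries.

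Of 34 amino acid synthesis genes under Gcn4 6 were higher and 6 lower (17.6% each, against 13.1% and 14.5% of all genes). Higher calls fell to 2 without WT YPD or H3i YPGal of replicate 1. Lower calls fell to 0 without H3i YPGal replicate 1, to 1 without WT YPD replicate 1 and to 3 in 4 other cases. SNZ1, a vitamin B6 gene, stood at 787, 789 and 702 CPM in H3i YPD and at 43.2 CPM or less in the other 9 libraries (difference 4.42 ± 0.33 SE, edgeR adjusted p = 0.00544). LYS1, of lysine synthesis, differed by 2.97 ± 0.29 SE, edgeR adjusted p = 0.00544. ARO4, for the first step of aromatic amino acids, and ASN1, for asparagine synthetase, responded lower, by −2.18 and −1.97 (edgeR adjusted p = 0.0105 and 0.0436). ASN1 lost its call without any of 6 libraries and ARO4 without H3i YPGal replicate 1. Gene lists with at most 2 calls in each direction were gluconeogenesis and oxidative phosphorylation, described above, glucose sensing and repression, COS genes, histone chaperones and regulators, variant and linker histones, G1/S cyclins, G2/M genes, hypoxic genes, and the a-specific and alpha-specific mating genes and the Rap1, Rif and Sir genes described below.

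RAP1 and the silencing genes were followed because the series concerns Rap1. RAP1 stood at 157, 272 and 251 CPM in WT YPGal and 171, 289 and 203 CPM in WT YPD, and at 142, 178 and 197 CPM in H3i YPGal and 173, 196 and 215 CPM in H3i YPD. The groups overlapped, and the difference of −0.26 was not called (edgeR adjusted p = 0.572) and turned to 0.30 with library totals. RIF1, for a partner of Rap1 at telomeres, and SIR4, for a scaffold of silent chromatin, were called higher. RIF1 stood at 97.4, 1.90 and 104 CPM in WT YPGal and 82.2, 248 and 88.8 CPM in WT YPD, and at 99.4, 2.23 and 85.9 CPM in H3i YPGal and 294, 556 and 324 CPM in H3i YPD. In replicates 1 and 3 H3i YPD was the highest group. The differences were 1.41 ± 0.30 SE, edgeR adjusted p = 0.0143 for RIF1 and 1.47 ± 0.35 SE, edgeR adjusted p = 0.0209 for SIR4, and leaving out single libraries left 0 to 3 of the 7 genes called. RIF1 lost its call without WT YPD replicate 1 or H3i YPGal replicate 3, and SIR4 without any of 4 libraries. SIR1, SIR2, SIR3 and RIF2 had differences of 1.63, 0.87, 0.86 and 0.33, none past the threshold (edgeR adjusted p = 0.0513, 0.133, 0.0969 and 0.685). With library totals 5 of the 7 were called higher. In the 12 libraries RIF1 turned to −0.063 when both WT libraries of replicate 3 were left out, and it was not called there.

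Position on the chromosome went with the response. Within 20 kb of a chromosome end, 200 of 239 genes passed the filter on low counts, which a gene read in H3i YPD alone can pass. The shares of higher calls are therefore set in part by the filter. Of the 200 genes tested, 72 (36%) were called higher and 2 (1%) lower, with a median difference of 2.09. The share of higher calls was 26.1% under 10 kb, 43.8% from 10 to 20 kb, 21.8% from 20 to 30 kb and 12% at 200 kb or more, while the share of lower calls ran from 0% under 10 kb to 16.3% at 200 kb or more. Level went with the response too. The next shares of higher calls are for genes under 20 kb and at 100 kb or more, by mean CPM over the 8 libraries. They were 8.11% and 8% under 5 CPM, 33.3% and 14.5% from 5 to 20 CPM, and 46.8% and 19.1% from 20 to 50 CPM. From 50 to 100 CPM they were 63.6% and 14.1%, and from 100 to 500 CPM 31.0% and 9.97%. Each level held 29 to 51 genes under 20 kb. The part of level in the shares by position was not tested. Leaving out single libraries gave 30 to 69 higher calls near the ends, and the medians within replicates were 2.78, 3.23 and 1.91. PAU, HXT, FLO, COS and THI families have members there, so that this set overlaps those described above.

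By level, genes called lower made up 0% of those under 5 CPM on average, 17.5% from 100 to 200 CPM and 56.2% from 500 to 1000 CPM, while higher calls were most frequent from 20 to 50 CPM (20.8%). The mean includes H3i YPD, so that a change there also moves a gene between levels, and the shares by level are set in part by the calls themselves. Cytosolic ribosomal protein genes belong to the highly read genes. By length, 33.3% of genes with a coding length of 3000 bases or more were higher and 2.87% lower, against 8.34% and 25.8% from 500 to 1000 bases. Among genes called higher TATAAA stood in the 500 bases before the start in 67.5%, against 60.3% of all coding genes tested and 57% of those called lower. These shares are descriptions over genes that share libraries. Power differs with level, and its part in the shares was not tested.

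**Figure D4:**
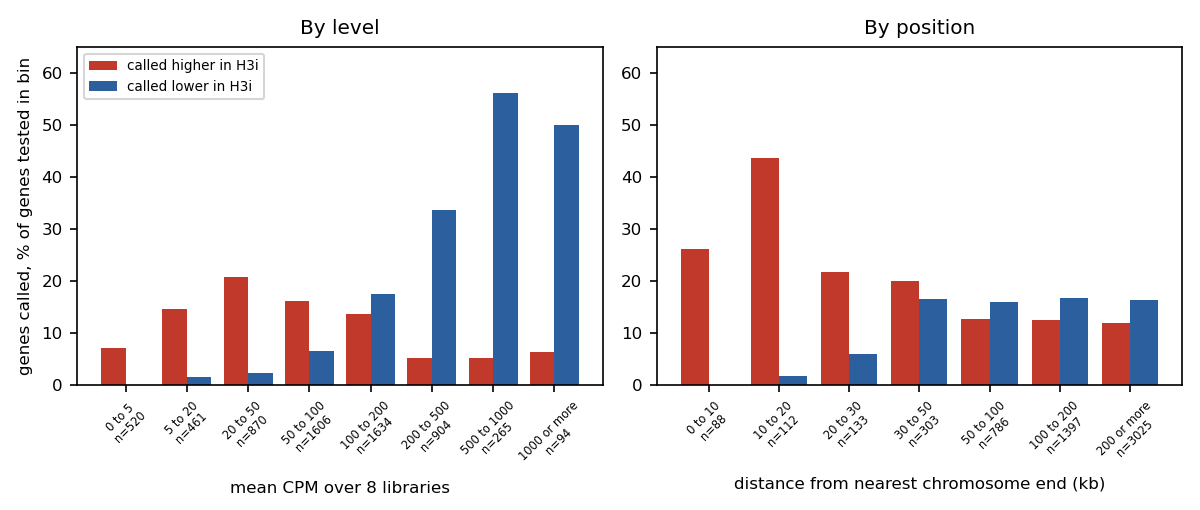
Percent of tested genes called higher (red) and lower (blue) in H3i, replicates 1 and 3, by mean CPM over the 8 libraries (left) and by distance from the nearest chromosome end (right); n is the number of genes in each bin. Lower calls peak at 56.2% from 500 to 1000 CPM, and higher calls at 43.8% from 10 to 20 kb.

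Replicate 2 shares no library with the 8 used for the calls and gave a separate reading, without a test. Among genes with at least 100 counts in each of its 4 libraries, 259 of 284 called higher (91.2%) had a difference above 0 within replicate 2, as did 61.0% of the 1571 not called. Of 491 called lower 80.7% were below 0, against 39.0% of those not called. With at least 10 counts the shares were 88.6% of 546 and 65.3% of 801. Of the 3116 genes not called there, 68.2% were above 0 and 31.8% below. The medians of all genes tested were 0.77, 1.45 and 0.42 within replicates 1, 2 and 3, so that replicate 2 leans to values above 0. Replicate 2 lost fewer genes in H3i YPD than elsewhere (21.8% against 41.4% to 46.8%), which moves with that lean. Its part in the lean was not tested. Some named genes went against their call within replicate 2. RPL16A, EGD2, PFK1, ERG11, PRE5 and HHF2, called lower, stood at 1.49, 1.30, 1.35, 1.96, 5.52 and 1.61 there. LYS1 and POL1, called higher, stood at −0.12 and −12.4.

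**Figure D5:**
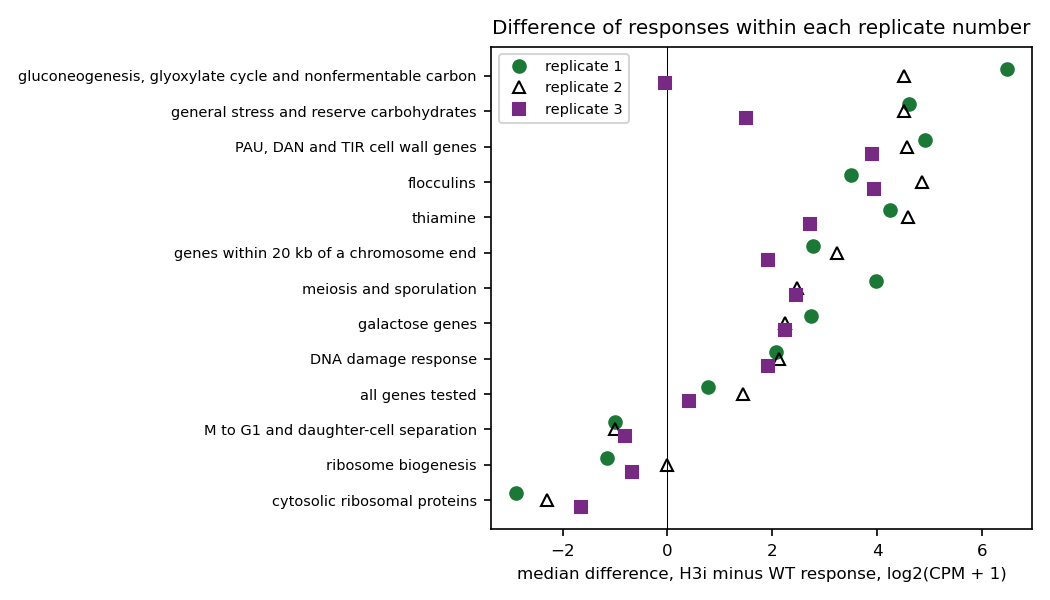
Median difference of responses (H3i minus WT, log2(CPM + 1) scale) over the tested members of 12 gene lists and over all genes tested, computed within replicate 1 (green circles), replicate 2 (open triangles) and replicate 3 (purple squares). Cytosolic ribosomal proteins are below 0 in each replicate (−2.89, −2.30 and −1.64); gluconeogenesis genes stand at 6.49, 4.51 and −0.05.

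The WT libraries of replicate 3 stood apart in mating-type genes as well as in marker genes. STE2 and BAR1, on in a cells, were at 14.6 and 12.6 CPM there in YPD, against 349 to 900 CPM in the other YPD libraries. STE3 was read at 9.50, 0.582 and 354 CPM in WT YPGal and 2.59, 0.344 and 601 CPM in WT YPD, and at 5.01, 1.03 and 18.4 CPM in H3i YPGal and 119.9, 35.5 and 165 CPM in H3i YPD. STE3 encodes the receptor of alpha cells for the a pheromone. The WT libraries of replicate 3 were the highest, and H3i YPD lay above H3i YPGal in each replicate. The difference within replicates 1, 2 and 3 was 5.88, 4.40 and 2.33 on the log2(CPM + 1) scale, and the fitted difference of 3.91 did not pass the test (edgeR adjusted p = 0.176). SAG1, the alpha agglutinin, gave 3.50, 4.61 and 0.58. Without both WT libraries of replicate 3, 3 of 5 alpha-specific genes were called higher and 6 of 7 a-specific genes lower, against 0 and 0 with them. Those fits have 1 residual degree of freedom. Of 16 haploid and pheromone-response genes 3 were higher (18.8%, against 13.1% of all genes) and 5 lower (31.2%, against 14.5%), and the lower calls fell to 2 without WT YPD replicate 1 or H3i YPGal replicate 3 and to 3 without H3i YPGal or H3i YPD of replicate 1. PRM1 and PRM2, for membrane proteins of mating cells, differed by 3.24 ± 0.36 SE, edgeR adjusted p = 0.0064 and 3.43 (edgeR adjusted p = 0.011), and HO, for the mating-type endonuclease, and STE4, for a G protein subunit, by −2.26 and −2.13 (edgeR adjusted p = 0.0138 and 0.0173). PRM2 and HO lost their calls without H3i YPGal replicate 1, and STE4 without any of 2 libraries.

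Reads outside the counted genes moved with the same contrast. The share of aligned reads that fell in more than 1 place was 25.4%, 38.5% and 22.0% in H3i YPD and 11.7% to 18.6% in the other 9 libraries. Uniquely aligned reads in no annotated feature made up 7.54%, 8.82% and 9.64% in H3i YPD, against 3.71%, 7.03% and 5.81% in H3i YPGal. The first share was higher in H3i YPD than in every other library. The second was highest in H3i YPD within each replicate number, while WT YPGal of replicate 2, at 7.73%, lay above H3i YPD of replicate 1. Their part in the differences of single genes was not tested.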

How the data were processed

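RNA was sequenced from 12 yeast cultures, 3 biological replicates of each strain and medium. For each library the authors deposited a table of raw counts per feature, whole numbers without normalization. The submitters' processing notes name the aligner HISAT2 and the tools SAMtools, Picard, FastQC and DESeq2, and the genome build sacCer3. The sources used here do not state versions, the counting tool or its strand setting, so that overlapping and antisense features and near-identical copies may share or lose reads. Each table lists 7127 features, of which 6047 matched a RefSeq locus tag, and 5 entries that name no gene. Those entries stayed out of library sizes and tests. They held between 66.3% and 74.5% of a replicate 2 table, between 27.5% and 38.6% of a replicate 1 table, and between 22.0% and 33.7% of a replicate 3 table. Replicates are those of the labels. In the main fits, p-values measure the spread between replicates that remains once the kit term given below is fitted. With replicates 1 and 3 only, that term takes up any shift shared by all libraries of a replicate number. Without it, 25 genes were called there in place of 1756. In WT the remaining spread may also hold a difference in strain, since marker genes differed between these replicates.

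The contrast was tested with the quasi-likelihood test of edgeR 4.0.16 (R 4.3.3) on the deposited counts, with TMM factors, the filterByExpr filter, a term for the kit (replicate 3 against 1 and 2) and Benjamini-Hochberg adjustment over all genes tested at 0.05. All 12 libraries were used (7 residual degrees of freedom), and then the 8 of replicates 1 and 3 (3 residual degrees of freedom), to which unqualified values in the text belong. Fold differences are on the log2 scale. Per-replicate differences used log2(CPM + 1) with CPM from gene totals, and carry no test. Groups at 0 were set to a floor of 3 counts, and intervals of fold values are exact for counting error only (95%). Libraries with the same replicate number deviated together from their group means in all 18 pairs (r from 0.392 to 0.822). For pairs with different numbers r ran from −0.763 to 0.585, so that the ranges overlap. In all, 12 of 12 libraries correlated best with their own number, so the numbers were taken to pair the libraries. Depth, kit and the loss in replicate 2 also go with the number, and their part in these correlations was not tested. Motifs were searched on both strands in the 500 bases before coding starts of RefSeq R64, and the Gal4 and Rap1 patterns were given by their fixed letters.

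Genes and 37 lists were chosen with earlier results of these data known, and lists are described by counts and medians without a test. Counts of called list members in replicates 1 and 3 are to be read beside 13.1% higher and 14.5% lower among all genes tested. Named genes were those called in the 12 libraries, the 6 highest and 6 lowest called differences in replicates 1 and 3 with a mean of 10 CPM or more in a group, up to 2 called members per direction of each list with 3 or more calls, and the strain checks; any other gene named was chosen after its values were seen. Alternatives were RLE factors, library totals, no filter, DESeq2 1.42.0, limma 3.58.1 voom, other blocks and libraries left out. The test was tried on simulated data. Of 100 genes set to a 4-fold difference, 22 were called in replicates 1 and 3. In the 12 libraries 0 were called, and 0 with the replicate block. Of 100 set to a 2-fold difference, 1, 0 and 0 were called in the same order. Of 6051 genes set to no difference, 6 were called in replicates 1 and 3. A gene that was not called may therefore still differ.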

Additional observations from a re-analysis of the deposited data

Results flagged for a closer look

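A difference between the responses of both strains, by its own test, was found for 1 gene in all 12 libraries, for 208 genes with the replicate block and for 1756 genes in replicates 1 and 3 (edgeR, adjusted p under 0.05).

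In all 3 replicates, 4 named genes moved at least 2-fold up in H3i and at least 2-fold down in WT. Their fitted differences were 5.13 for HSP26, 6.39 for GND2, 5.15 for GRE1 and 6.75 for THI13 on the log2 scale. HSP26 encodes a small heat shock protein, GND2 and GRE1 stand in the list of stress genes, and THI13 acts in thiamine synthesis.

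Reads that no gene comparison uses were most frequent in H3i YPD. Of its aligned reads 25.4%, 38.5% and 22.0% fell in more than 1 place in replicates 1, 2 and 3. Of its uniquely aligned reads 7.54%, 8.82% and 9.64% lay in no feature. The share in more than 1 place was above that of all 9 libraries of the other groups, and the share in no feature above that of the other 3 libraries with the same replicate number.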

How the results depend on the processing

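Over all 12 libraries, where 1 gene was called, RLE factors, the replicate block within strain, a fit with no replicate block and no kit term, and both WT libraries of replicate 3 left out each gave 0 calls (302 to 790 genes at an unadjusted p under 0.05). DESeq2 gave 73, voom with quality weights 449, the replicate block 208, and that block without both WT libraries of replicate 3, an alternative chosen after seeing the data, 137. Leaving out a replicate number gave 0 to 1756 calls, the highest without replicate 2, and leaving out 1 library gave 0 (298 to 439 at an unadjusted p under 0.05). In replicates 1 and 3 the fit with no replicate block gave 25 calls, and leaving out 1 library 524 to 1591; the other 7 alternatives planned there gave 1661 to 2203. Directions turned for genes that were not called and for RIF1. In the 12 libraries HHF1 turned to 0.43 with library totals and 0.019 with no block and no kit term, and ran from −0.50 to 0.23 without single libraries or replicates; RAP1 turned to 0.21 with library totals and ran from −0.71 to 0.15; SIR2 ran from −0.77 to 2.73 and SIR3 from −0.99 to 2.49; RIF1 turned to −0.26 with the block and −0.063 with the kit term, each without both WT libraries of replicate 3. In replicates 1 and 3 HHF1 turned to 0.23 and RAP1 to 0.30 with library totals, and RIF2 ran from −0.11 to 0.95. None of 63 called genes named from replicates 1 and 3 turned under an alternative run there, 27 kept their call without each of the 8 libraries, 47 without both WT libraries of replicate 3, and 7 with no replicate block. Apart from the construction of each alternative, the cause was not tested. Depth limits genes near 0 counts, above all in replicate 1.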

Other observations

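Transposon genes were also read at a higher level after the shift in H3i. The 49 tested Ty gag and gag-pol genes encode the coat and the enzymes of retrotransposons. Of these, 21 were called higher and 0 lower in replicates 1 and 3 (edgeR, adjusted p under 0.05), beside 13.1% and 14.5% of all genes. Their median difference was 1.99, with a range from 0.12 to 5.28. Their median response was 1.85 in H3i and −0.06 in WT. Within replicates 1, 2 and 3 the medians were 2.33, 2.28 and 2.23. These genes are near-identical copies, so that single values are uncertain, and reads with several places may be missing from them.

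Among RefSeq classes other than coding genes, 5 of 9 pseudogenes were called higher and 0 lower (median difference 4.98). Of 68 tRNA genes 2 were higher and 0 lower (median 1.66), and of 74 snoRNA and snRNA genes 3 were lower and 0 higher (median −0.55). Over all genes tested the shares were 13.1% higher and 14.5% lower, and the tRNA, snoRNA and snRNA genes stood below them. Features without a RefSeq locus tag gave 28 higher and 5 lower of 356 (median 0.98), against 800 and 913 of 5845 coding genes.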
